A study of Mus musculus with 5 samples.

Results

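Tnfsf11, Tnfrsf11a and Tnfrsf11b encode RANKL, its receptor RANK and the soluble decoy osteoprotegerin, and they were followed here across the cell types of the mouse kidney in acute kidney injury (AKI) and in the chronic kidney disease (CKD) that follows it. The 3 genes were found by symbol among the 32285 genes listed in each of the 5 files. Tnfsf11 (ENSMUSG00000022015) lies on the minus strand of chromosome 14 at 78514885 to 78545490, Tnfrsf11a (ENSMUSG00000026321) on the plus strand of chromosome 1 at 105708358 to 105777170, and Tnfrsf11b (ENSMUSG00000063727) on the minus strand of chromosome 15 at 54114015 to 54142075, as annotated on GRCm39. The question was which cells held the ligand, the receptor and the decoy, and how far their levels differed between the stages.

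Kidneys came from male wild-type mice of the C57BL/6 strain, 8 to 10 weeks old. Droplet-based single-cell RNA sequencing gave 1 control library (week 0), 2 AKI libraries (week 2) and 2 CKD libraries (week 4). AKI mice had received intraperitoneal injections of aristolochic acid I (AAI), a plant toxin that injures the proximal tubule, at 3 mg/kg over 2 weeks, and CKD mice had the same course followed by 2 weeks without AAI. The study's methods give vehicle to the control mice. The sources used here do not say whether a library is 1 mouse or a pool, so p-values measure only the spread between libraries.

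RANKL belongs to the tumour necrosis factor family and is made by activated T cells, innate lymphoid cells and stromal cells. When it binds RANK on cells of the monocyte lineage, the adaptor TRAF6 carries the signal to NF-kappaB and AP-1, and the transcription factor NFATc1 then switches on the genes of the osteoclast, the bone-resorbing cell. Osteoprotegerin has no membrane anchor, binds RANKL before it reaches RANK and so acts as a brake, and it also binds the death ligand TRAIL (Tnfsf10). Lgr4 has been described as another receptor of RANKL. Outside bone, RANK is known from macrophages, dendritic cells and epithelia, and osteoprotegerin from endothelial and vascular wall cells.

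Of 10873 to 22034 barcodes per library, holding 90028670 to 121316769 unique molecular identifiers (UMIs, each standing for a captured RNA molecule), 53718 cells were kept, with a median of 2904.5 to 5675 UMIs per cell. Over 30% mitochondrial UMIs, the limit used, were found in 38.7% of control barcodes and in 11.1 to 12.7% of those in AKI and CKD. Cells were clustered and named by marker genes that held none of the 3 members, and "-like" marks that a name rests on markers alone. The tubule-like cells carried the 6 proximal tubule markers at 10.1 to 21.5 summed UMIs per 10000. In 86 control cells the barcode was also that of a CKD 2 cell whose UMIs exceeded theirs by over 20 times, and results that rest on them are given with and without them. A level below is the number of UMIs of a gene per 10000 UMIs of all cells of a class in 1 library, and its 95% interval (exact Poisson) covers counting error only.

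Over all kept cells the ligand was at 0.0175 UMIs per 10000 in the control, 0.226 and 0.218 in AKI 1 and AKI 2, and 0.220 and 0.316 in CKD 1 and CKD 2. The 4 injured libraries were all above the control, whose interval ran from 0.0142 to 0.0214, and AKI and CKD overlapped. Between CKD and AKI the Tnfsf11 difference was 0.43 ± 0.21 (log2 fold change ± SE, 2 libraries each, edgeR quasi-likelihood test, adjusted p = 0.330), with an interval of -0.14 to 0.99. The receptor was at 0.0396 in the control, 0.0549 and 0.0674 in AKI, and 0.139 and 0.149 in CKD, so that the 3 stages did not overlap. Its log2 difference from AKI to CKD was 1.38 ± 0.18 and did not pass the 0.05 threshold in edgeR (adjusted p = 0.0925), while DESeq2 gave 1.38 with an adjusted p of 3.28e-06. It passed in edgeR without CKD 1 (1.45, adjusted p = 0.0232) and without CKD 2 (1.31, adjusted p = 0.0497), and the adjusted p ran up to 0.613 over the alternatives. The decoy was counted at 47 UMIs in the control (0.00858 per 10000), 27 and 18 in AKI (0.00379 and 0.00257) and 11 and 13 in CKD (0.00139 and 0.00162). Its log2 difference of -0.91 ± 0.40 between CKD and AKI did not pass (edgeR, adjusted p = 0.281). In this comparison 7 of 17264 genes tested were called, or 0.0405%.

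The make-up of the libraries differed as well, and its part in these sums was not tested. T lymphocyte-like cells were 13.6% of the kept cells in the control, 55.3% and 55.4% in AKI, and 26.2% and 63.3% in CKD, whereas endothelial (EC)-like cells were 17.1% in the control and 2.88 to 6.80% in the other libraries. More cells of a type and more RNA of a gene per cell cannot be told apart in a sum over all cells, and the values per class are therefore given below. The log2 difference of Tnfsf11 was 0.67 with an adjusted p of 0.0255 (edgeR) without CKD 1, the CKD library with fewer T lymphocyte-like cells, and 0.11 without CKD 2.

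The ratio of ligand to decoy UMIs was 2.04 in the control (95% interval 1.43 to 2.96), 59.6 and 85.1 in AKI, and 158 and 195 in CKD. The ratio of ligand to receptor UMIs was 0.442 (0.344 to 0.565) in the control, 4.12 and 3.24 in AKI, and 1.59 and 2.12 in CKD. Ratios are compared between libraries only, since capture can differ from gene to gene. Both were lowest in the control, and the ligand to receptor ratio was lower in both CKD libraries than in both AKI libraries. Cells with a UMI of both ligand and receptor numbered 0 in the control, 10 and 11 in AKI and 20 and 19 in CKD. Cells with a ligand UMI numbered 67, then 854 and 832, then 976 and 1154 in the same order. Those with a receptor UMI numbered 198, then 324 and 372, then 668 and 491. Whether the cells with both exceed coincidence was not tested.

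**Figure D1:**
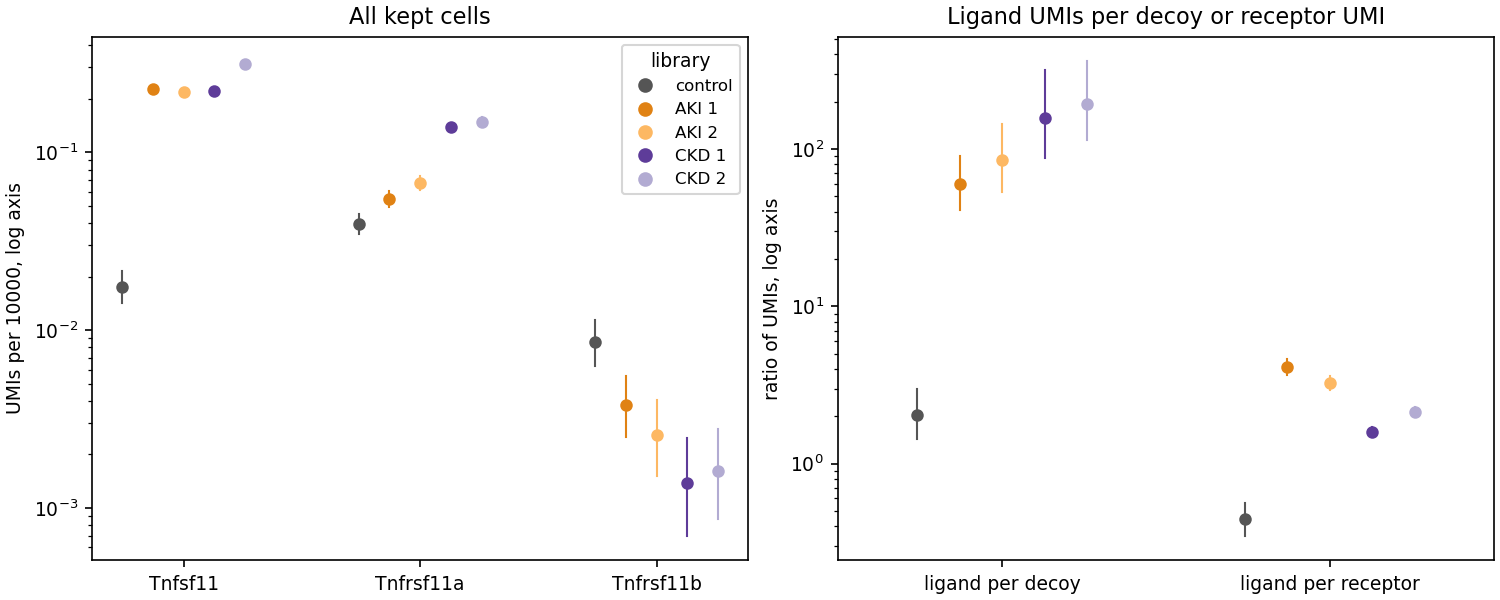
Levels of the 3 genes over all kept cells (left, UMIs per 10000, log axis) and UMIs of the ligand per UMI of the decoy or the receptor (right, log axis), 1 point per library with its 95% counting interval. The ligand lay at 0.0175 in the control and at 0.218 to 0.316 in the other 4 libraries, the receptor was highest in the 2 CKD libraries, and the decoy was highest in the control.

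The 3 genes sat in 3 different compartments. T lymphocyte-like cells held 87.3% of the 7511 Tnfsf11 UMIs, macrophage-like cells 61.6% of the 3373 Tnfrsf11a UMIs, and EC-like cells 64.7% of the 116 Tnfrsf11b UMIs. The T lymphocyte-like share of Tnfsf11 was 77.1% in the control, 89.5% and 87.1% in AKI, and 76.9% and 93.5% in CKD. For the receptor and the decoy the main holder was not the same in every library. EC-like cells held 43.8% of the Tnfrsf11a UMIs in the control, 17.9% and 7.19% in AKI and 2.55% and 2.85% in CKD, while macrophage-like cells held 24.0% in the control, 34.5% and 38.5% in AKI and 67.6% and 80.9% in CKD. EC-like cells held 40 of the 47 decoy UMIs in the control and 7 to 10 per library after injury, and in AKI 1 fibroblast/pericyte-like cells held more than they did (11 against 10 of 27 UMIs).

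**Figure D2:**
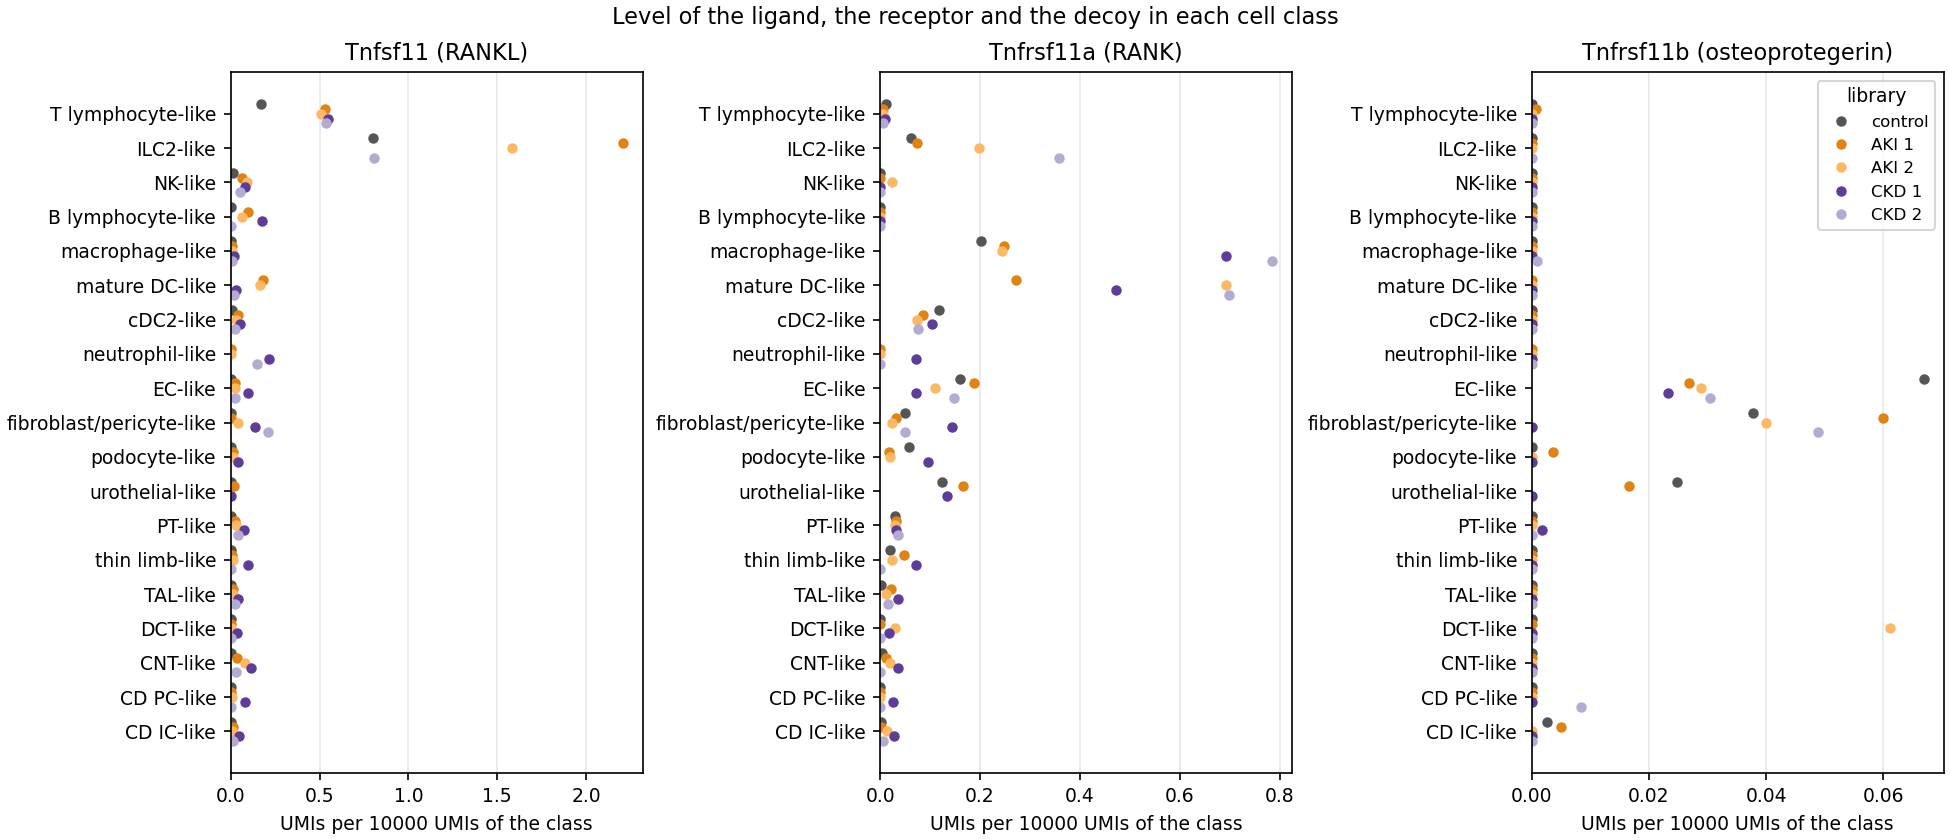
UMIs per 10000 of Tnfsf11, Tnfrsf11a and Tnfrsf11b in each cell class, 1 point per library, with classes under 20 cells left out of a library. Tnfsf11 stands out in T lymphocyte-like and ILC2-like cells, Tnfrsf11a in macrophage-like and mature DC-like cells, and Tnfrsf11b in EC-like and fibroblast/pericyte-like cells.

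By mean level over the libraries, ILC2-like cells, which carry markers of group 2 innate lymphoid cells, stood first for Tnfsf11. They were at 0.802 in the control (13 UMIs in 41 cells), 2.21 in AKI 1 (30 UMIs in 33 cells), 1.58 in AKI 2 (16 UMIs in 26 cells) and 0.805 in CKD 2 (9 UMIs in 24 cells), and CKD 1 had 18 such cells. The summed T cell markers in these cells were 1.79 per 10000 in the control, 30.1 and 23.6 in AKI and 10.4 in CKD 2, against 36.7 to 47.1 in T lymphocyte-like cells, and their part in the AKI values was not tested. T lymphocyte-like cells came second and did not overlap with the ILC2-like range.

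In T lymphocyte-like cells Tnfsf11 was at 0.170 in the control (95% interval 0.134 to 0.214, 74 UMIs in 1156 cells), 0.531 and 0.509 in AKI, and 0.547 and 0.538 in CKD. The 4 injured libraries lay close together and all above the control's interval. The log2 difference between CKD and AKI was 0.06 ± 0.07 (edgeR, adjusted p = 0.637), with an interval of -0.12 to 0.23, while 11.8% of the 13667 genes tested were called. A UMI of Tnfsf11 was found in 4.41% of these cells in the control and in 12.7 to 18.9% in the other libraries. Tubule-like cells, taken as the background class, gave 0.0516 to 2.90%, at median depths of 2325 to 6429.5 UMIs against 3285 to 5635 in T lymphocyte-like cells. With every cell thinned to 1000 UMIs the shares were 1.09 to 4.13% in T lymphocyte-like and 0 to 1.18% in tubule-like cells.

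Among the T cell subsets, activated CD4 T-like cells held the highest mean level of Tnfsf11. It was 0.331 in the control (0.216 to 0.485), 1.14 and 1.16 in AKI and 1.20 and 1.08 in CKD, so that control and injured libraries were apart and AKI and CKD overlapped. The log2 difference between CKD and AKI was -0.06 ± 0.09 (edgeR, adjusted p = 0.821), with an interval of -0.27 to 0.16, and 0.483% of all genes were called there. One subcluster of 503 of these cells, led by the chemokine gene Ccl1, the calcium-signalling gene Nrgn and the costimulatory ligand gene Cd70, reached 2.27 and 2.04 in AKI and 3.01 and 2.32 in CKD, with a Tnfsf11 UMI in 50.8 to 66.0% of its cells. It had 12 cells and 1 UMI in the control.

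CD4 and activated CD4 T-like cells together were set against CD8 T-like cells within each library. The CD4 side was at 0.205 in the control, 1.03 and 1.06 in AKI and 1.10 and 0.993 in CKD. The CD8 side was at 0.0501 in the control, 0.282 and 0.210 in AKI and 0.158 and 0.228 in CKD, below the CD4 side in 5 of 5 libraries. Activated CD4 T-like cells made up most of the CD4 side, from 226 of 364 cells in the control to 1557 of 1823 in CKD 2. CD4 T-like cells without the activated ones were at 0.0188 in the control, 0.377 and 0.463 in AKI and 0.302 and 0.426 in CKD, below the CD8 side in the control and above it in the other 4 libraries. The control order rests on few counts. Its CD8 side held 7 Tnfsf11 UMIs and its whole CD4 side 27, most of them in activated cells. The log2 difference was 2.18 ± 0.09 (edgeR with the library as a block, 5 libraries, adjusted p = 6.72e-15), and 22.6% of the 11877 genes were called. It did not differ detectably between CKD and AKI, with an interaction of 0.24 ± 0.14 on the log2 scale (adjusted p = 0.521). CD8 T-like cells alone gave -0.32 ± 0.22 between CKD and AKI (edgeR, adjusted p = 0.501), where 2.47% of genes were called.

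Regulatory T (Treg)-like cells ordered the libraries differently. Tnfsf11 was at 0.721 in the control (7 UMIs in 31 cells, interval 0.290 to 1.49), 0.174 and 0.192 in AKI and 0.341 and 0.292 in CKD. The AKI libraries were the lowest and did not overlap with CKD. The log2 difference between CKD and AKI was 0.72 ± 0.21 (edgeR, adjusted p = 0.0917, 3.41% of genes called), and it passed with an adjusted p of 0.0394 only in clusters made without the correction by library. The test of whether Treg-like and activated CD4 T-like cells differed in this change gave 0.79 ± 0.23 on the log2 scale (edgeR, adjusted p = 0.0524). Gamma-delta T-like cells, a class of innate-like T cells, were at 0.738 in the control (11 UMIs), 0.596 and 0.473 in AKI and 0.612 in CKD 2, but at 0.0493 in CKD 1, where 1 UMI was found in 54 cells. Their range overlapped with those of the Treg-like and the cycling T-like cells.

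**Figure D3:**
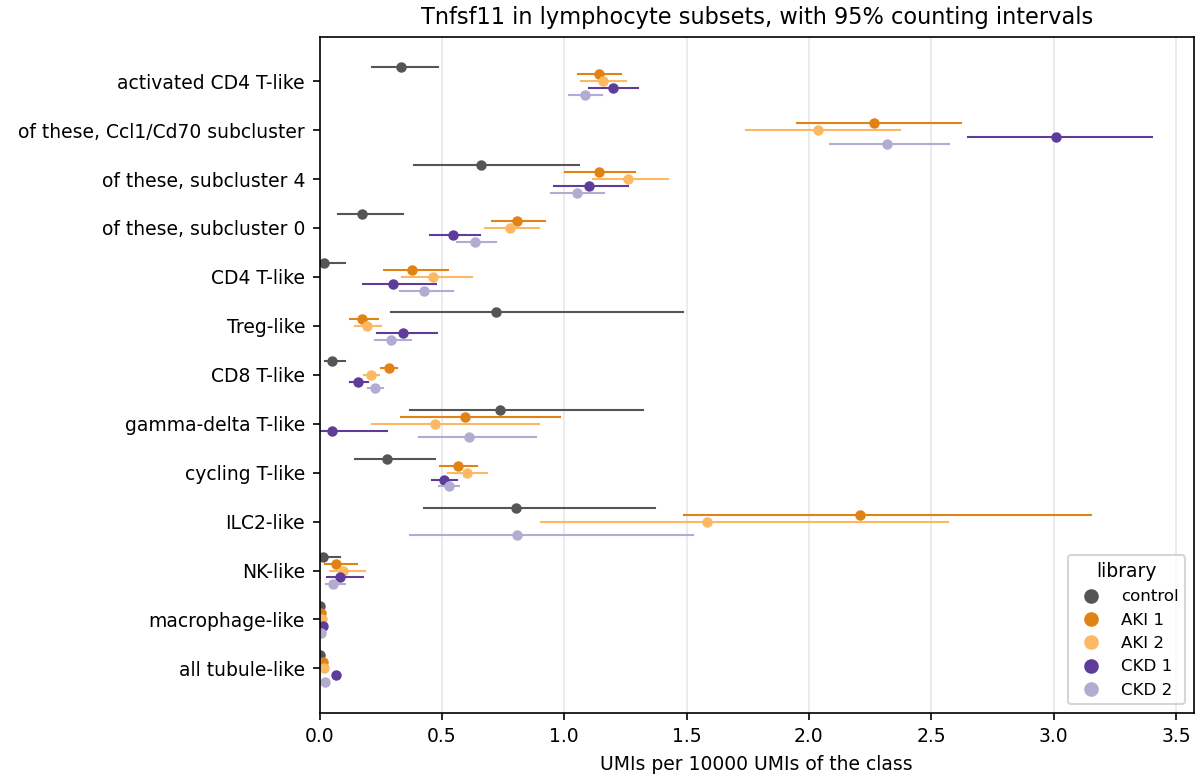
Tnfsf11 in lymphocyte subsets and in reference classes (UMIs per 10000, linear axis), 1 point per library with its 95% counting interval, for units of at least 20 cells in a library. Activated CD4 T-like cells lay at 1.08 to 1.20 after injury and at 0.331 in the control, CD8 T-like cells at 0.0501 to 0.282, and macrophage-like and tubule-like cells near 0.

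Outside lymphocytes Tnfsf11 was low, and these classes also carried T cell markers. Tubule-like cells were at 0.000849 in the control, 0.0156 and 0.0197 in AKI, and 0.0685 and 0.0224 in CKD, and their summed T cell markers were likewise lowest in the control (0.115 per 10000) and highest in CKD 1 (5.27). Per 1000 UMIs of those 6 markers, tubule-like cells held 7.39 Tnfsf11 UMIs in the control (3 UMIs counted), 12.3 and 20.03 in AKI and 12.996 and 12.4 in CKD, and T lymphocyte-like cells held 4.65 to 11.9. In the same order of libraries T lymphocyte-like cells held 4.65, then 11.7 and 10.9, then 11.9 and 11.4, below the tubule-like cells in 5 of 5 libraries. In AKI 1, CKD 1 and CKD 2 the ratios of both classes lay close together. The tubule-like ratios after injury rested on 21 to 176 UMIs, and no interval was computed for them. Fibroblast/pericyte-like cells, the stromal class, had no Tnfsf11 UMI in the control and in AKI 1 and were at 0.0399 in AKI 2, 0.135 in CKD 1 and 0.212 in CKD 2 (13 UMIs). Their T cell markers were at 11.2 in CKD 1 and 7.71 in CKD 2. With 15 UMIs in CKD 1 and 13 in CKD 2 behind them, the Tnfsf11 levels of these libraries were not shown to differ. Mature DC-like cells were at 0.181 and 0.164 in AKI and 0.0308 and 0.0184 in CKD, from 1 to 9 UMIs per library with overlapping intervals, while their T cell markers were at 5.11 to 7.66. Macrophage-like cells were at 0 to 0.0158. The part of T cell RNA in these levels was not tested.

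The genes with a level most like that of Tnfsf11 over 99 sums of class and library (24 classes, 15928 genes, Pearson correlation of log2 CPM) were Cd5 (r = 0.88), Tnfsf8 (0.88), Cd3g (0.88), Cd247 (0.87) and Cd6 (0.87). Cd3g and Cd247 encode parts of the T cell receptor complex, and Tnfsf8 is another ligand of the tumour necrosis factor family. The sums share libraries and depth, and these correlations are a description. Cd5 and Tnfsf8 were among the markers of the CD4 subsets.

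Of the T cell activation genes listed beside Tnfsf11, 6 of 8 were higher and 0 lower in CD4 than in CD8 T-like cells, with a median of 0.94 against -0.01 over all genes tested, of which 12.0% were higher and 10.6% lower. Most CD4 cells here were named as activated, and their largest subcluster was led by Cd40lg, so this direction is not independent of the naming. Tnfrsf4, which encodes the costimulatory receptor OX40, was higher by 3.22 ± 0.08 (log2, adjusted p = 1.28e-18), and Cd40lg, a ligand that licenses antigen-presenting cells, by 2.75 ± 0.10. Il2ra, the alpha chain of the interleukin-2 receptor, was higher by 1.62, Tnfrsf9, the receptor 4-1BB, by 1.05, and the costimulator Icos by 0.84. Among cytokines known to induce RANKL and their receptors, 5 of 10 tested were higher and 0 lower, including Il17a (2.25 ± 0.49, 57 against 12 UMIs), Il6 (1.66), Il6ra (1.26) and Tnf (1.17). The counts of these 2 lists ran from 4 to 7 and from 1 to 5 over the alternatives. Of the 9 transcription factors listed for RANK signalling, 5 were higher and 1 lower, led by Nfkb1 (0.86) and Nfatc1 (0.69). Of 7 brakes on RANK signalling 4 were higher and 0 lower, with the repressor genes Bcl6 (1.02) and Irf8 (0.90) first. Of 17 adaptors and kinases 2 were higher, Traf3 (0.51) and Traf6 (0.34), and the kinase gene Tec was lower (-0.85), and of 5 targets Itgb3 was higher (0.93) and Car2 lower (-0.70). Tnfrsf10b, a receptor of TRAIL, was higher by 1.03. Tnfsf10, whose product the decoy also binds, was lower in CD4 than in CD8 T-like cells (-0.36), and Lgr4 did not pass (-0.13, adjusted p = 0.750).

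Between CKD and AKI several activation genes were lower in T lymphocyte-like cells, where Tnfsf11 did not pass the test. Of the 8, 0 were higher and 4 lower in CKD, namely Tnfrsf9 (-0.68 ± 0.13, adjusted p = 0.0343), the immediate early gene Nr4a1 (-0.62), Cd69 (-0.47) and Nfatc2 (-0.38), beside 8.35% of all genes higher and 3.47% lower. Cd69 was at 5.21 and 5.46 in AKI and at 3.71 and 3.98 in CKD, without overlap, and the control was at 6.74. The list's median was -0.43 against -0.03 over all genes. Jun (-0.80) and Fos (-0.66), the AP-1 subunits, were lower as well, and Nfatc1 (-0.27, adjusted p = 0.0622), Tnfsf10 (-0.28, adjusted p = 0.0620), Traf6 (-0.08) and Lgr4 (-0.56) did not pass. The calls need both AKI libraries, since 1 gene of all was called without AKI 1 and 0 without AKI 2 (edgeR), and the list then had 0 calls, whereas 4625 genes were called without CKD 1 and 3893 without CKD 2. From 0 to 6 of the list's genes were lower over the alternatives. Over all lists, 12 of 67 tested genes were lower and 1 higher. Bcl6 (-0.81), Tnfaip3 (-0.56), Map3k14 (-0.65) and Tnf (-0.36) were among those lower. The others included the macrophage gene Csf1r (-1.15), and the 7 macrophage markers in T lymphocyte-like cells summed to 3.02 and 4.51 per 10000 in AKI and 0.974 and 0.523 in CKD. The gene that was higher, Ocstamp, had 0 UMIs in AKI and 32 in CKD, at least 8.30-fold higher against a floor of 3 counts over the AKI libraries. With no AKI UMI it could only be called higher. The part of macrophage RNA in the calls on Csf1r and Ocstamp was not tested.

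The receptor rose in macrophage-like cells. Tnfrsf11a was at 0.202 in the control (interval 0.150 to 0.264), 0.248 and 0.244 in AKI, and 0.692 and 0.786 in CKD. AKI lay within the control's interval and both CKD libraries lay above it. The log2 difference between CKD and AKI was 1.44 ± 0.13 (edgeR, 2 libraries each, adjusted p = 0.000293), in a comparison in which 43.0% of the 12004 genes were called. A UMI was found in 6.16% of these cells in the control, 18.2% and 16.6% in AKI and 25.8% and 53.1% in CKD, at median depths of 3072 to 17932 UMIs. With cells thinned to 1000 UMIs these shares were 2.02%, 1.95%, 2.22%, 4.93% and 7.38%, against 0.0358 to 0.164% in T lymphocyte-like cells.

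The macrophage subsets held unlike levels. SM-like cells, which were named by Acp5, Ctsk and Mmp9, the genes that mark the scar-associated macrophages of this model and are themselves osteoclast genes, were at 0.956 in CKD 1 (458 UMIs in 433 cells) and 1.04 in CKD 2 (638 UMIs in 193 cells). They were at 0.613 in AKI 1 and 0.487 in AKI 2 (6 and 4 UMIs in 26 and 32 cells). The control gave 0.233 from 1 UMI in 44 cells, of which 20 shared a CKD 2 barcode, and 0 UMIs in the 24 others. All other macrophage-like cells were at 0.201 in the control, 0.241 and 0.241 in AKI, and 0.480 and 0.534 in CKD. SM-like cells were higher in the 4 AKI and CKD libraries, and in the control they were higher by that 1 UMI and lower without the shared barcodes. The log2 difference was 0.94 ± 0.28 (edgeR with the library as a block, adjusted p = 0.0122), and 31.0% of the 11704 genes were called. The call rests on both CKD libraries, because the adjusted p was 0.277 at 0.87 without CKD 1 and 0.314 at 0.87 without CKD 2. The difference was 0.55 in clusters made without the correction by library (adjusted p = 0.0336). The interaction with stage was 0.25 ± 0.55 (adjusted p = 0.864).

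Within SM-like cells the log2 difference between CKD and AKI was 1.00 ± 0.40 (edgeR, adjusted p = 0.286, 1.51% of genes called), with 10 AKI UMIs behind it. The class did not hold the same cells at both stages. Its macrophage markers summed to 217 and 331 per 10000 in AKI and to 34.5 and 28.4 in CKD, and the subcluster with the highest Tnfrsf11a had 2 and 3 cells in AKI (0.927 and 1.08) and 165 and 108 in CKD (1.05 and 1.11). In the other macrophage-like cells Tnfrsf11a rose by 0.89 ± 0.13 (edgeR, adjusted p = 0.00316, 33.0% of genes called), and by 1.42 in clusters made without the correction by library. These other cells were themselves mixed. AM-like cells, which carry antigen-presentation markers, were at 0.198 in the control, 0.233 and 0.238 in AKI and 0.312 and 0.281 in CKD, a difference of 0.17 ± 0.18 (adjusted p = 0.634, interval -0.23 to 0.56, 6.42% of genes called). Cycling macrophage-like cells were at 0.294 and 0.273 in AKI and at 0.600 and 0.664 in CKD, with no overlap of the intervals between stages, and this was not tested. SM-like cells made up 26 of 614 and 32 of 849 macrophage-like cells in AKI and 433 of 1338 and 193 of 599 in CKD. The 7 macrophage markers, complement and scavenger genes among them, summed to 208 per 10000 in the control, 400 and 411 in AKI and 75.7 and 75.9 in CKD, and the part of this shift in the rise was not tested.

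**Figure D4:**
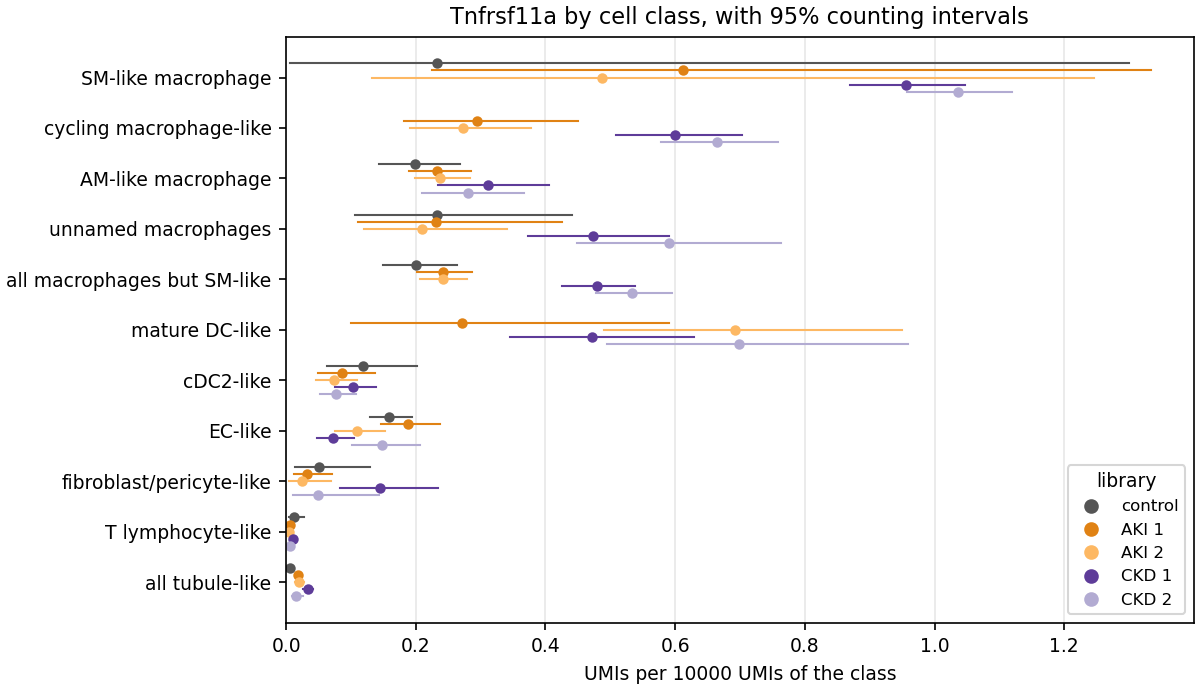
Tnfrsf11a by macrophage subset and in other classes (UMIs per 10000, linear axis), 1 point per library with its 95% counting interval. SM-like cells reached 0.956 and 1.04 in CKD, AM-like cells stayed between 0.198 and 0.312 in all 5 libraries, and EC-like cells lay between 0.0724 and 0.188.

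Mature DC-like cells, dendritic cells of the migratory, CCR7-positive kind, had the highest mean level of Tnfrsf11a of all classes, at 0.271 and 0.692 in AKI and 0.472 and 0.698 in CKD. The control had 15 such cells. Their range overlapped with that of the macrophage-like cells, and the difference within libraries was 0.32 ± 0.31 on the log2 scale (edgeR, 4 libraries, adjusted p = 0.475, interval -0.35 to 0.98, 31.4% of genes called). The summed macrophage markers in them were 0.570 to 4.88 per 10000, against 75.7 or more in macrophage-like cells. cDC2-like cells, conventional dendritic cells, were at 0.0732 to 0.118.

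EC-like cells also held the receptor. Tnfrsf11a was at 0.159 in the control (95 UMIs), 0.188 and 0.109 in AKI and 0.0724 and 0.148 in CKD, and the stages overlapped. Tubule-like cells, far more numerous, were at 0.00651 to 0.0331 and held more Tnfrsf11a UMIs than EC-like cells in AKI 2 (37 against 34) and CKD 1 (85 against 28). Per UMI of the class, the log2 difference between EC-like and tubule-like cells was 2.87 ± 0.49 (edgeR with the library as a block, adjusted p = 0.00148), higher in 5 of 5 libraries, in a comparison that called 70.1% of genes. Per 1000 UMIs of the macrophage markers EC-like cells held 22.4 Tnfrsf11a UMIs in the control, 21.1 and 10.9 in AKI and 6.75 and 21.6 in CKD, and macrophage-like cells 0.971, 0.620 and 0.594, and 9.14 and 10.4. EC-like cells were thus above the macrophage-like cells of the same library in 4 of 5 libraries and below them in CKD 1. The CKD against AKI difference within EC-like cells was -0.41 ± 0.43 (edgeR, adjusted p = 0.890), where 0% of 11285 genes were called, 540 had an unadjusted p under 0.05, and DESeq2 called 8. Its sign turned without AKI 1 (0.06) and without CKD 1 (0.02). Urothelial-like cells were at 0.124 to 0.165 in the 3 libraries with at least 20 cells, podocyte-like cells at 0.0183 to 0.0965 in the 4 libraries with at least 20 cells, T lymphocyte-like cells at 0.00496 to 0.0115, and B lymphocyte-like cells at 0 in all 5 libraries.

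The genes with a level most like that of Tnfrsf11a over the same 99 sums were Guca1a (r = 0.82), the semaphorin co-receptor gene Nrp2 (0.82), Rasa4 (0.81), the cytokine receptor subunit gene Csf2rb (0.81) and the lysosomal protease gene Ctsz (0.81).

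Genes that RANK is known to switch on in osteoclast precursors moved with the receptor in macrophage-like cells. Of the 9 such targets outside the marker genes, 8 were higher and 0 lower in CKD than in AKI, beside 21.9% of all genes higher and 21.1% lower. The median was 4.01 (3.39 with genes at 0 in AKI set to their lower bound) against -0.01 over all genes. SM-like cells, named by Acp5, Ctsk and Mmp9 of the same programme, belong to this class and were a larger part of it in CKD. The direction of the targets is therefore not independent of the naming. Atp6v0d2, a subunit of the proton pump, was at 0.132 in the control, 0.0827 and 0.0456 in AKI and 4.92 in both CKD libraries, a rise of 6.15 ± 0.23 (adjusted p = 3.41e-05). Ocstamp, needed for cell fusion, rose by 5.78 and Itgb3, the integrin beta 3 chain, by 4.01. Oscar, an osteoclast receptor, had 0 UMIs in the control and in AKI and 508 in CKD, at least 94.9-fold higher, and the calcitonin receptor gene Calcr had 0 in AKI and 56 in CKD, at least 10.5-fold higher, both against a floor of 3 counts over the AKI libraries. Without a UMI in AKI, Oscar and Calcr could only be called higher. Nfatc1, the regulator of these genes, was at 0.360 in the control, 0.283 and 0.256 in AKI and 2.21 and 2.75 in CKD, a rise of 3.06 ± 0.16 (adjusted p = 5.96e-05).

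Of 19 adaptors and kinases between receptor and targets, 4 were higher, 5 lower and 10 not called, with Traf6 among the last (0.04 ± 0.15, adjusted p = 0.856). Such shares are near those over all genes, 21.9% higher and 21.1% lower, and say nothing particular about these steps. Src, the kinase of the ruffled border, rose by 1.75, Mapk8 by 0.92 and Tab1 by 0.88, while the adaptor gene Gab2 fell by 1.33 and Map3k14 fell by 0.85. Of 9 transcription factors, 2 were higher, Nfatc1 and Mitf (0.90), and 6 lower, including Jun (-1.97), Fos (-1.33) and Creb1 (-0.64). Of 7 brakes on RANK signalling, 4 were lower and 1 higher. Irf8 fell by 1.96, Bcl6 fell by 1.85 and Tnfaip3 fell by 1.46, and Nfkbia rose by 0.38. Irf8 was at 2.59 in the control, 2.51 and 2.42 in AKI and 0.715 and 0.692 in CKD.

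The same background, 21.9% higher and 21.1% lower, holds for the remaining lists. The costimulatory list had 1 of 6 genes higher, Oscar, which the target list also holds, and 2 lower, Fcer1g (-1.14) and the receptor gene Csf1r (-0.97). Of 9 tested inducers of RANKL and their receptors, 0 were higher and 7 lower in CKD, led by Il6 (-2.20), Ptger4 (-2.12), Il1b (-2.12), Tnf (-1.96) and Il6ra (-1.26). Il1b was at 10.5 in the control, 8.52 and 9.17 in AKI and 2.15 and 2.37 in CKD. T cell activation genes, which macrophages also use in part, gave 1 higher, Tnfrsf9 (1.35), and 4 lower of 7 tested, Il2ra (-1.91), Nfatc2 (-1.74), Nr4a1 (-1.05) and Cd69 (-0.92). Tnfsf10 (-0.64, adjusted p = 0.342) and Lgr4 (-0.07, adjusted p = 0.937) did not pass.

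In SM-like against other macrophage-like cells, 9 of 9 targets were higher, beside 10.8% of all genes higher and 20.2% lower, with a median of 3.69 against -0.11. Because SM-like cells were named by Acp5, Ctsk and Mmp9, which belong to the same programme, this direction is not independent of the naming, and 3 to 9 of the 9 were called over the alternatives. Nfatc1 and the other lists below compare cells chosen by the same markers, so their directions are not independent of the naming either. Oscar was higher by 5.58, Itgb3 by 4.21, Ocstamp by 3.76 and Atp6v0d2 by 3.69, and Calcr had 55 UMIs in SM-like and 2 in the other cells. Nfatc1 was higher by 1.43 ± 0.33 (adjusted p = 0.00140), Src by 1.68, Ikbkg by 1.21 and Traf6 by 0.55 (adjusted p = 0.0427), while Map3k14 was lower (-0.76). Of the brakes 0 were higher and 4 lower, with Bcl6 (-2.14), Irf8 (-2.08) and Tnfaip3 (-1.62) among them. Of the inducers 0 were higher and 7 of 9 lower, led by Il6 with 1 UMI against 133, Il1b (-4.00) and Tnf (-3.38). Jun (-2.48), Fos (-2.14) and Fcer1g (-0.72) were lower too, and of the activation genes Tnfrsf9 was higher (2.10) and Nfatc2 lower (-2.61). Tnfsf10 (-0.73, adjusted p = 0.187) and Lgr4 (-0.32, adjusted p = 0.564) did not pass. SM-like cells had a median of 822.5 UMIs in the control and 32293 in CKD 2, so depth differed most in this class.

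**Figure D5:**
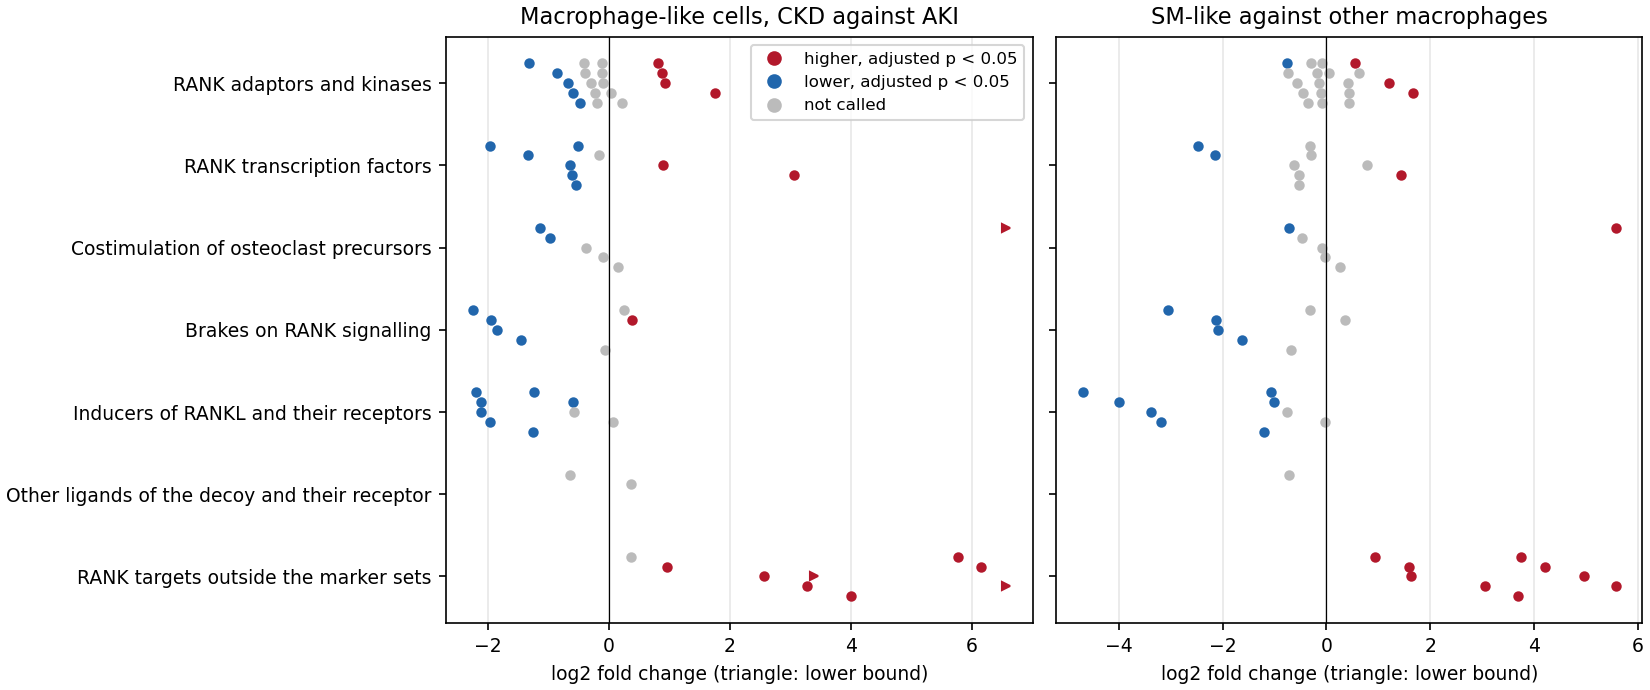
Log2 fold changes of the genes of 7 lists of the RANK pathway in macrophage-like cells, CKD against AKI (left), and in SM-like against other macrophage-like cells (right), 1 point per gene, coloured by call at an adjusted p of 0.05, with triangles at the lower bound for genes without a UMI in AKI. Targets lie to the right in both panels, with 8 of 9 and 9 of 9 called higher, and inducers of RANKL to the left, with 7 of 9 called lower in each. In neither panel is the direction of the targets independent of the naming of SM-like cells, and in the right panel this limit holds for the other lists too.

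The decoy was rare, with 116 UMIs in 53718 cells, and was found mainly in vascular and stromal cells. In EC-like cells Tnfrsf11b was at 0.0670 in the control (95% interval 0.0478 to 0.0912, 40 UMIs in 1449 cells), 0.0268 and 0.0289 in AKI (10 and 9 UMIs), and 0.0233 and 0.0304 in CKD (9 and 7 UMIs). The 4 injured libraries lay between 0.0233 and 0.0304, below the control's level, and AKI and CKD overlapped. The single control library allows no test of this, and 3 of the 4 upper limits, from 0.0442 to 0.0627, exceed the control's lower limit. With so few UMIs Tnfrsf11b did not pass the filter on low counts for CKD against AKI in EC-like cells. Against tubule-like cells the log2 difference was 4.84 ± 0.44 (edgeR with the library as a block, 5 libraries, adjusted p = 7.98e-05).

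Fibroblast/pericyte-like cells were at 0.0378 in the control (3 UMIs), 0.0600 and 0.0399 in AKI (11 and 5 UMIs), 0 in CKD 1 (0 of 347 cells with a UMI) and 0.0489 in CKD 2 (3 UMIs). Their range overlapped with that of EC-like cells. Against tubule-like cells, which held 1 to 4 UMIs per library, the log2 difference was 4.62 ± 0.70 (edgeR with the library as a block, adjusted p = 0.000801), higher in 4 of 5 libraries, beside 50.8% of genes called. The 4 tubule-like UMIs of AKI 2 came from 1 DCT-like cell. Over all non-immune kidney cells the difference between CKD and AKI was -0.42 ± 0.49 (edgeR, adjusted p = 0.743) with an interval of -1.66 to 0.83, and it was 0.11 without CKD 1. In that comparison 0% of 15819 genes were called, 1901 had an unadjusted p under 0.05, and DESeq2 called 267. At this depth a change of the decoy between AKI and CKD was not detectable in either direction. The control, with 1 library, was not tested against the injured libraries.

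T lymphocyte-like cells held 2 and macrophage-like cells 1 of the decoy's UMIs, and the ILC2-like, NK-like, cDC2-like and mature DC-like classes 0. The genes with a level most like that of Tnfrsf11b were Lgr5 (r = 0.94), Spaar (0.94), Timp4 (0.93), Nr5a2 (0.92) and Ccn3 (0.92), all with 113 to 800 UMIs over the same 99 sums, so these correlations rest on few counts.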

How the data were processed

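Kidneys were digested with collagenase and DNase, and Chromium 3′ libraries were sequenced. For each of the 5 libraries the authors deposited a matrix of raw UMI counts, made per the submitters' processing notes with Cell Ranger 7.2.0, STAR and GRCm39. The matrix headers of the AKI and CKD libraries, however, name an older Cell Ranger, and the gene list of the control names mm10. Whether the control and the injured libraries were processed alike was not tested. Ambient RNA removal and doublet removal described in the study's methods are not in these counts, and ambient RNA was not removed here. Groups were taken from the sample labels.

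Barcodes with at least 200 genes and at most 30% mitochondrial UMIs were kept, and the cells most like simulated doublets were removed from each library, 0.8% for every 1000 cells. Cells were clustered (Python 3.11.15, scikit-learn 1.9.0, leidenalg 0.10.2) on 3000 variable genes without the 3 members and the pathway genes, 40 components corrected by library and 15 neighbours at resolution 1.5, and T cells and macrophages were clustered again. A cluster was named by its highest marker set with at least 3 detected markers and otherwise left unnamed, by rules settled after the clusters had been seen. UMIs were summed per class and library. Levels carry exact Poisson intervals and shares of cells exact binomial ones (Clopper-Pearson), at 95%, for counting error only. CKD was compared with AKI in edgeR 4.0.16 (TMM, filterByExpr, quasi-likelihood test, Benjamini-Hochberg over all genes), with the library as a block for classes within libraries. The control, with 1 library, enters no test between stages. The fit was also run on counts simulated with the same dispersion for every gene and no library effect beyond depth. Such counts do not cover the spread between these libraries. Changes are log2 fold changes ± SE, and a call is an adjusted p under 0.05.

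The alternatives were DESeq2 1.42.0, another scaling, no filter, each library left out, a replicate block, doublets kept, a mitochondrial limit of 15%, no shared barcodes and clusters without correction by library. The 3 members, the 8 pathway lists of 70 entries and the tests were chosen with earlier results of these data known. From each list at most 5 called genes with the largest change are named, and Nfatc1, Traf6, Lgr4 and Tnfsf10 always. Not every gene that this rule names is reported here. Positions are those of the reference annotation.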

Additional observations from a re-analysis of the deposited data

Results flagged for a closer look

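RANKL and RANK were also counted outside the named classes, in cells that no comparison of a named class used (the kept ones enter the sums over all kept cells, and doublets the alternative that keeps them). In kept cells of unnamed clusters Tnfsf11 was at 0.141 to 0.240 UMIs per 10000 in the 4 AKI and CKD libraries, against 0.0529 in the control (3 UMIs in 325 cells). Tnfrsf11a was at 0.175 to 0.211 in the same cells, against 0.0705 in the control (4 UMIs). Of these cells, a cluster of 832 led by the myeloid genes Lyz2, Cxcl2 and Cd14 held 292 of the Tnfrsf11a UMIs. Another 2787 of them formed a subcluster of T and NK cells that was left unnamed, led by Gm26917, Spp1 and Gpx3. Its Tnfsf11 level was 0.118 in the control, 0.509 and 0.644 in AKI and 0.277 and 0.396 in CKD. In the barcodes left out as shallow, rich in mitochondrial UMIs or doublets, Tnfsf11 was at 0.0695 to 0.158 after injury and 0.00219 in the control, and Tnfrsf11a at 0.0326 to 0.0959 after injury and 0.0165 in the control. Both sets of cells were noted because every injured library exceeded the control, and neither was tested. No group had the 4 libraries that a test for a single outlying sample needs.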

How the results depend on the processing

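For the comparisons of the original design 92 tested values kept their direction and side of the threshold, 5 newly passed it, 2 no longer did and 1 turned sign. For the comparisons chosen after seeing the data 108 kept both, 1 newly passed and 3 turned sign. Leaving out 1 library in turn moved the log2 difference of CKD against AKI from 0.02 to 0.10 for Tnfsf11 in T lymphocyte-like cells, from 1.32 to 1.55 for Tnfrsf11a in macrophage-like cells, and from -0.95 to 0.11 for Tnfrsf11b in non-immune cells, where the sign turned without CKD 1 (0.11). Over all kept cells it ran from 0.11 to 0.67 for Tnfsf11, which passed without CKD 1, from 1.22 to 1.57 for Tnfrsf11a, and from -1.14 to -0.64 for Tnfrsf11b. It ran from 2.08 to 2.32 for CD4 against CD8, from 0.87 to 1.04 for SM-like against other macrophage-like cells (0.55 without correction by library), and from 4.27 to 4.96 for the fibroblast/pericyte-like decoy. Tnfrsf11a over all kept cells passed with DESeq2 (1.38). For EC-like cells it ran from -0.96 to 0.062, with the sign turned without AKI 1 (0.062) or CKD 1 (0.021), and for mature DC-like against macrophage-like cells from -0.12 to 0.59, turned without AKI 2 (-0.12). The Tnfsf11 difference in Treg-like cells passed without correction by library (0.68). Without correction by library it was -0.37 in activated CD4 T-like cells, and with doublets kept Tnfrsf11a in SM-like cells was 0.59. The control level of Tnfrsf11a in SM-like cells was 0 without shared barcodes. The cause of these shifts was not tested. The sum in SM-like cells without CKD 2, and in them without correction by library, gave no value.

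Replicate numbers are shared by AKI and CKD, but with 2 pairs and correlations of -0.18 to 0.24 they were not shown to pair the libraries. With the replicate block Tnfrsf11a over all kept cells passed (1.39, adjusted p = 0.0439, edgeR) and 277 genes were called in place of 7, the decoy in non-immune cells was at -0.44 with 4 genes called in place of 0, and the other calls on the 3 genes did not change side. With the numbers crossed the decoy was at -0.41 and 0 genes were called.

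The number of genes called moved by over 1.5 times in these cases. In T lymphocyte-like cells it was 1615, and from 0 (without AKI 2) to 4625 (without CKD 1) with 1 library left out. In macrophage-like cells it was 5163, and 3418 without AKI 1. In non-immune cells it was 0, 267 with DESeq2, 144 with no filter, 1 with doublets kept and up to 2252 without CKD 2. Over all kept cells it was 7, 1346 with DESeq2, 21 at the 15% limit, 0 with doublets kept and up to 3648 without CKD 1. For CD4 against CD8 it was 2679, 1691 with DESeq2 and 567 without the library block. For SM-like against other cells it was 3626, 1461 with DESeq2, 1522 without the library block and down to 1037 without CKD 2. Depth limits the decoy most, with 7 to 10 UMIs per injured library in EC-like cells.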
